A study of Mus musculus with 9 samples.

Results

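The transcripts of 5 cell surface markers were followed in LSK cells, the Lineage- Sca-1+ c-Kit+ fraction of mouse bone marrow that holds the blood stem cells and multipotent progenitors. The 5 genes were chosen by name: Ly6a and Kit, which encode the gate proteins Sca-1 and c-Kit, and Cd34, Flt3 and Cd48, whose proteins divide LSK cells into stem cells and progenitor subsets. All 5 were found among the 14461 genes of the deposited table and all 5 were among the 13771 genes tested. The cells came from parabiotic mice, pairs joined by surgery so that blood cells pass from one partner to the other. Marrow LSK cells were sorted with a viability dye and profiled as 9 bulk libraries of 3 per group. The circulating group is described by the series design as LSK cells that travelled to the marrow of an irradiated partner, and its strain label is C57BL/6. The irradiated group carries the same strain label, and the labels do not say what its cells are beyond that name. The sample titles hold codes that the labels do not explain: circulating and irradiated libraries of 1 replicate number share a code (DD1 to DD3), and endogenous libraries carry codes of their own (SJ1 to SJ3). The endogenous group carries the label B6SJL CD45.1, where CD45.1 is an allele of Ptprc. Strain label and group therefore change together wherever endogenous cells are compared, and their parts cannot be told apart. The sources used here give no radiation dose and no age or sex of the mice.

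Sca-1 is a small protein tied to the membrane by a glycosylphosphatidylinositol (GPI) anchor, and it is induced by interferon. c-Kit is the receptor tyrosine kinase for stem cell factor, and FLT3 is a related kinase that binds FLT3 ligand. In mouse marrow the long-term stem cells are low or negative for CD34, FLT3 and CD48, progenitors gain CD48 and CD34, and the lymphoid-primed progenitors are marked by FLT3. CD48 belongs to the SLAM family, as does CD150 (gene Slamf1), which stem cells keep.

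Values are deposited normalised values, each an estimated read count with 0.5 added and then multiplied by a constant of its library, and the libraries held between 14065855 and 27012345 recovered estimated counts. Every member rested on at least 1937 estimated counts in every library. The circulating libraries differed most among themselves, with a median SD per gene of 0.38 log2 units against 0.26 in endogenous and 0.21 in irradiated libraries. Each label names a mouse, but none states that replicate libraries are from different mice. The p-values therefore cover only sample-to-sample spread, part of which may be technical. Tests are from 1 limma fit over all genes on log2(value + 1), with Benjamini-Hochberg adjustment and a threshold of 0.05.

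Kit and Cd48 passed the test between circulating and endogenous cells, in opposite directions. Kit was lower in circulating cells, as were 3.3% of all tested genes, and Cd48 was higher, as were 5.33%. No member passed in the other comparisons in this fit, in which the 3 groups share 1 estimate of spread per gene. The calls changed when only the compared groups were fitted. The Cd48 call was then lost, and Kit, Cd34 and Flt3 passed in irradiated against endogenous cells. In the fit of all 9 libraries, 2 of 5 members were called in circulating against endogenous cells, beside 8.63% of all tested genes. All 5 had an unadjusted p under 0.05 there, as had 26.7% of all tested genes. In circulating against irradiated cells limma called 0 of 5 (background 0.029%), with 2 of 5 at an unadjusted p under 0.05 (11.4% of all genes) and 0 with voom weights. In irradiated against endogenous cells it called 0 of 5 (background 0.603%), with 3 of 5 at an unadjusted p under 0.05 (14.9% of all genes) and 0 with voom weights. The groups did not overlap for 4 of 5 members in circulating against endogenous cells (27.5% of all genes), for 2 of 5 in circulating against irradiated cells (16.7%) and for 4 of 5 in irradiated against endogenous cells (27.7%). Circulating and irradiated cells were both set against the same endogenous libraries, so these counts share their controls.

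**Figure D1:**
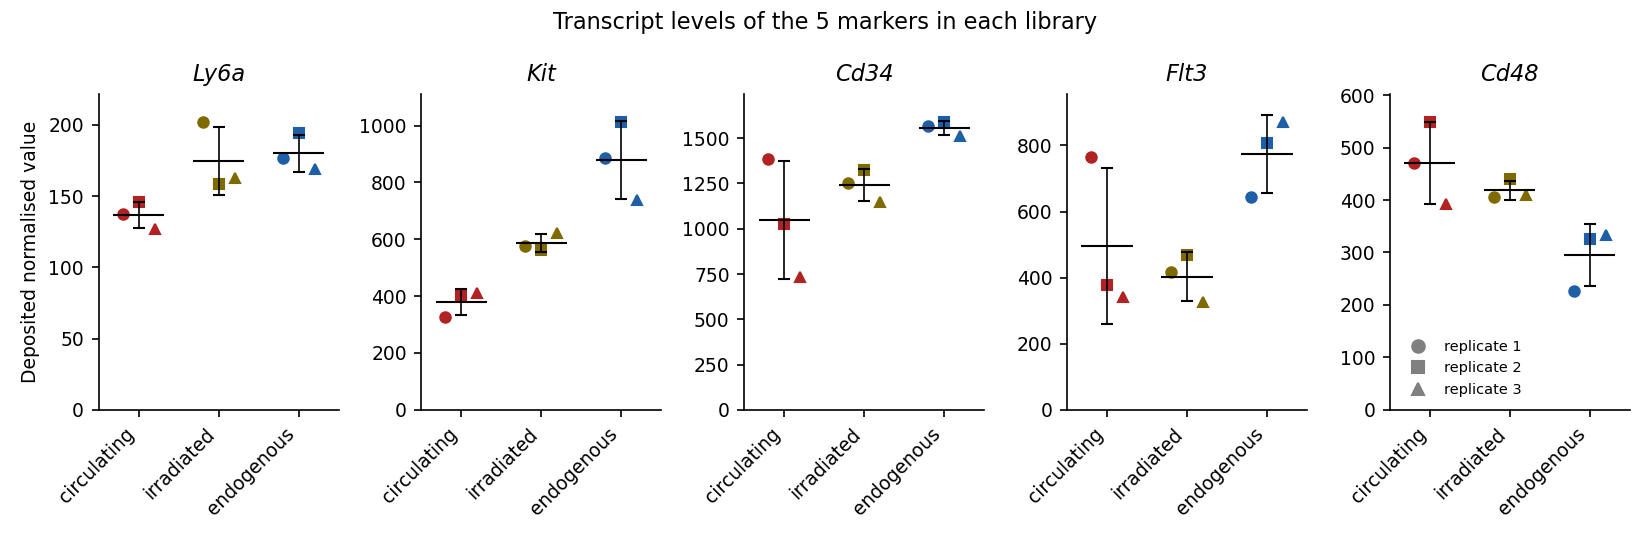
Deposited normalised values (y axis, from 0, a scale of its own in each panel) of Ly6a, Kit, Cd34, Flt3 and Cd48 in the 9 libraries, by group; symbols mark replicates 1 to 3, bars the mean and whiskers 1 SD (n = 3). Kit steps down from endogenous through irradiated to circulating libraries without overlap, Cd48 is lowest in the 3 endogenous libraries, and circulating replicate 1 stands apart from its group in Flt3 (766 against 377 and 342).

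Kit (ENSMUSG00000005672, chromosome 5 from 75574916 to 75656722 in GRCm38, plus strand) encodes c-Kit, the gate receptor that carries the survival signal of stem cell factor. Its normalised value was 327, 401 and 409.9 in circulating replicates 1 to 3, 576, 562 and 622 in irradiated replicates, and 887, 1011 and 737 in endogenous replicates. Every endogenous library was above every irradiated library, and every irradiated library above every circulating one. Kit fell in circulating against endogenous cells, from 878 ± 137 to 379 ± 45.1 (SD, n = 3), a log2 fold change of -1.20 (SE 0.13, 95% confidence interval -1.50 to -0.91, limma adjusted p = 0.00257). Over 20 alternative settings the log2 fold change ran from -1.41 to -1.10 with an adjusted p from 0.000493 to 0.0348. In bulk samples, fewer cells of a type and less RNA per cell cannot be told apart, and this holds for every value below. The cells had been sorted on c-Kit protein, and whether the gates were set alike in the groups is a point on which the labels are silent.

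The irradiated libraries lay between the other groups. Kit was 587 ± 31.3 there, with a log2 fold change of -0.57 from endogenous cells (interval -0.87 to -0.28, limma adjusted p = 0.0884), and circulating cells differed from irradiated cells by -0.63 (interval -0.93 to -0.34, limma adjusted p = 0.145). Neither difference passed. The first passed in limma when only the irradiated and endogenous libraries were fitted (adjusted p = 0.024), with sample weights (0.0144), with scaling by library size alone (0.0245) and without circulating replicate 1 (0.041).

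Kit and Cd48 are the members that passed, so their promoter windows are shown, from 250 bases before to 50 bases after the start site, as RefSeq gives them on GRCm38.p6. The promoter table held 4 of the 5 members. The letters of 6 motifs were searched on both strands. They were AGATAA for the GATA factors, TGTGGT for RUNX, CCGGAA for ETS, GAGGAA for PU.1, GGGCGG for SP1 and CANNTG for the E-box. Capitals mark matches of the first 4, the motifs of blood transcription factors. The Kit window, chr5:75574737-75575036, and the Cd48 window, chr1:171681742-171682041, both lie on the plus strand.
Kit: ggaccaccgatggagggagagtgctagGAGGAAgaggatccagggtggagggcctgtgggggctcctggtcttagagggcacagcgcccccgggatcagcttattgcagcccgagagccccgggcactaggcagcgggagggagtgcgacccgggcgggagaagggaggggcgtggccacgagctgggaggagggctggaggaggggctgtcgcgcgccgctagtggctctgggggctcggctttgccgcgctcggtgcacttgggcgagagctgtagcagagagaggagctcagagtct
Cd48: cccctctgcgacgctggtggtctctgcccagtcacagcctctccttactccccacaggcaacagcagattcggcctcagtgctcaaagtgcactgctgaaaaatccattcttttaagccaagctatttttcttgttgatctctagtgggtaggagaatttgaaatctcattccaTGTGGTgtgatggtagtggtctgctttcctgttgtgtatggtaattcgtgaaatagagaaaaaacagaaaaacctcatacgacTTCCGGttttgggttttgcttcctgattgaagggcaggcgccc
The Kit window was 69.0% G and C and the Cd48 window 47.3%, against a median of 52.7% over 32851 promoter windows of 300 bases. The Kit window held 1 PU.1 match that began 223 bases before the start, 1 SP1 match 98 bases before it and 1 E-box match 9 bases after it. The Cd48 window held 1 RUNX match that began 76 bases before the start and overlapped an E-box match 78 bases before it, and 1 ETS match on the minus strand 8 bases after the start. The Flt3 window held 2 E-box matches and none of the other letters, and the Cd34 window held no match to the 6 motifs. Of all windows, 11.2% held the GATA letters, 16.8% RUNX, 14.9% ETS, 28.3% PU.1, 35.7% SP1 and 72.3% the E-box. A match of letters is a description and not a binding site.

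Ly6a (ENSMUSG00000075602, chromosome 15 from 74994877 to 74998031, minus strand) encodes Sca-1. Its normalised value was 138, 146 and 127 in circulating replicates, 202, 159 and 163 in irradiated replicates, and 177, 194 and 169 in endogenous replicates. The 3 circulating libraries were the lowest of the 9, and the irradiated and endogenous libraries overlapped. Ly6a did not pass in any comparison: the log2 fold change was -0.39 in circulating against endogenous cells (interval -0.69 to -0.10, limma adjusted p = 0.0923), -0.34 in circulating against irradiated cells (-0.64 to -0.05, adjusted p = 0.381) and -0.05 in irradiated against endogenous cells (-0.35 to 0.24, adjusted p = 0.898). The first of these passed in limma with scaling by library size alone (log2 fold change -0.60, adjusted p = 0.025), a scaling under which the median of all genes moved to -0.22. The Ly6a interval of irradiated against endogenous cells left room for at most a 1.27-fold lower and a 1.18-fold higher level on the log2(value + 1) scale.

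Cd34 (ENSMUSG00000016494, chromosome 1 from 194938819 to 194961279, plus strand) encodes a sialomucin of progenitors. Its normalised value was 1384, 1024 and 735 in circulating replicates, 1251, 1324 and 1147 in irradiated replicates, and 1569.8, 1588 and 1512 in endogenous replicates. All 3 endogenous libraries were above all others and varied little, with a coefficient of variation of 2.56% against 31.1% in circulating libraries. The log2 fold change was -0.62 in circulating against endogenous cells (interval -1.01 to -0.23, limma adjusted p = 0.0545), -0.33 in irradiated against endogenous cells (-0.72 to 0.06, adjusted p = 0.432) and -0.29 in circulating against irradiated cells (-0.68 to 0.10, adjusted p = 0.572). Without circulating replicate 1, which had the highest Cd34 of its group, the first became -0.84 and passed (limma adjusted p = 0.00398). It also passed with scaling by library size alone (limma adjusted p = 0.0345), and the difference of irradiated from endogenous cells passed when only those groups were fitted (limma adjusted p = 0.0428).

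Flt3 (ENSMUSG00000042817, chromosome 5 from 147330741 to 147400489, minus strand) encodes the receptor that marks the lymphoid-primed progenitors. Its normalised value was 766, 377 and 342 in circulating replicates, 416, 469 and 325 in irradiated replicates, and 642, 807 and 870.0 in endogenous replicates. Circulating replicate 1 lay within the endogenous range, and the other circulating libraries within the irradiated range. The log2 fold change was -0.73 in circulating against endogenous cells (interval -1.31 to -0.15, limma adjusted p = 0.109), -0.94 in irradiated against endogenous cells (-1.52 to -0.36, adjusted p = 0.130) and 0.21 in circulating against irradiated cells (-0.37 to 0.79, adjusted p = 0.791). Without circulating replicate 1 these became -1.09 (limma adjusted p = 0.00401), -0.94 (0.0173) and -0.15 (0.698). Both differences from endogenous cells thus passed without that library, and the sign of the last difference turned. For irradiated against endogenous cells the difference stayed at -0.94 and its SE went from 0.26 to 0.15. It also passed in limma with only those groups fitted (adjusted p = 0.00865) and with sample weights (0.018).

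Cd48 (ENSMUSG00000015355, chromosome 1 from 171682009 to 171705258, plus strand) encodes the GPI-anchored SLAM protein whose absence is used to define stem cells. Its normalised value was 469.7, 548 and 392 in circulating replicates, 405, 439.9 and 409.8 in irradiated replicates, and 227, 325 and 333 in endogenous replicates. The endogenous libraries were the lowest of the 9, and the circulating and irradiated libraries overlapped. Cd48 rose in circulating against endogenous cells, 470.04 ± 78.0 against 295 ± 59.1 (SD, n = 3), a log2 fold change of 0.68 (SE 0.16, interval 0.32 to 1.04, limma adjusted p = 0.0323). Irradiated cells stood at 418 ± 18.9, 0.52 above endogenous cells (interval 0.16 to 0.88, limma adjusted p = 0.167), and circulating differed from irradiated cells by 0.16 (interval -0.21 to 0.52, adjusted p = 0.751).

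The call for Cd48 was close to the threshold. It ended without circulating replicate 2 (limma adjusted p = 0.0733), irradiated replicates 1, 2 or 3 (0.0573, 0.0526 and 0.0538), or endogenous replicates 1 or 2 (0.107 and 0.0626), with sample weights (0.0615), with only these groups fitted (0.0949) and with scaling by library size alone (0.108). In irradiated against endogenous cells Cd48 passed with sample weights (limma adjusted p = 0.0344). Cd48 lies 33.6 megabases, and Cd34 56.9 megabases, from Ptprc, the gene whose allele the strain label names. Ptprc itself missed the threshold between circulating and endogenous cells (583 ± 115 against 589.6 ± 28.3, limma adjusted p = 0.898). In irradiated cells Ptprc was 486 ± 32.1, below every endogenous library, and did not pass (limma adjusted p = 0.400). These values do not show whether strain had a part in Cd48 or Cd34, which was not tested.

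**Figure D2:**
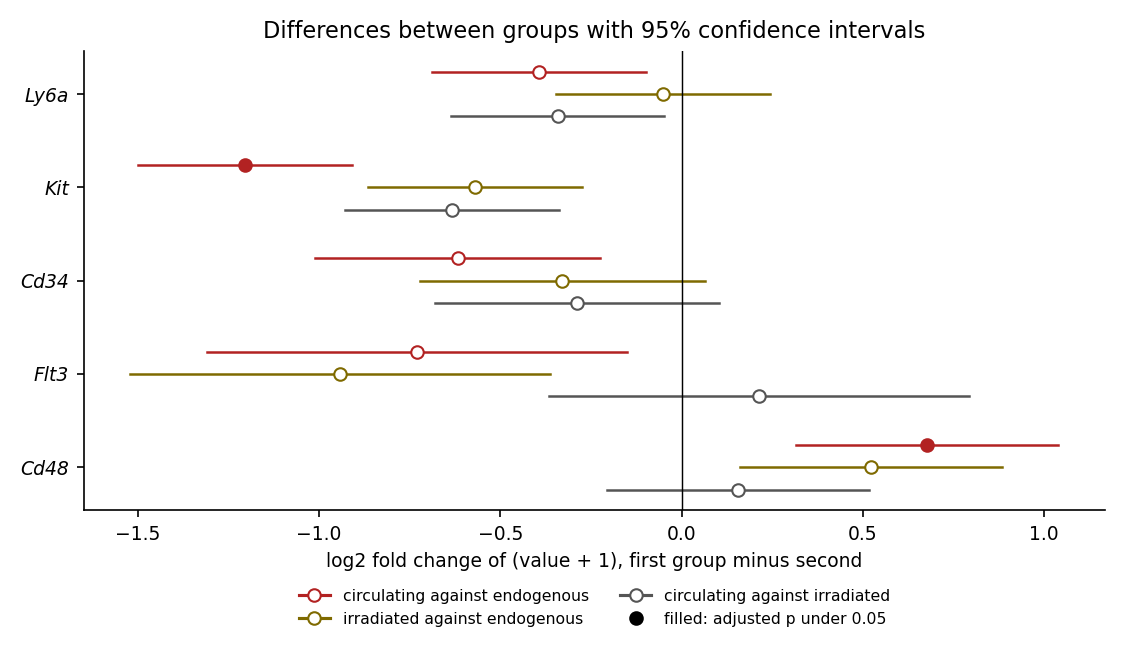
Log2 fold change of value + 1 (x axis) for the 5 markers in circulating against endogenous, irradiated against endogenous and circulating against irradiated cells; lines are 95% confidence intervals from the fit of all 9 libraries and filled circles passed at an adjusted p under 0.05. Only Kit (-1.20) and Cd48 (0.68) in circulating against endogenous cells are filled.

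Ratios between markers within a library do not depend on how libraries were scaled. Of 7 ratios, 2 differed between the 3 groups in a two-sided exact permutation test over the 9 libraries, whose smallest possible p is 0.00357. The ratio of Cd48 to Kit was 1.43, 1.37 and 0.957 in circulating replicates, 0.703, 0.782 and 0.659 in irradiated replicates, and 0.256, 0.321 and 0.452 in endogenous replicates (exact p = 0.00357, adjusted p = 0.025). No pair of groups overlapped in this ratio, and the circulating mean was 1.89 log2 units above the endogenous mean. The ratio of Kit to Ly6a, the genes of the gate proteins, was 2.38, 2.75 and 3.22 in circulating replicates, 2.85, 3.55 and 3.82 in irradiated replicates, and 5.01, 5.21 and 4.36 in endogenous replicates (exact p = 0.00714, adjusted p = 0.025). The endogenous libraries were the highest of the 9, and the other groups overlapped. The adjusted exact p of the Kit to Ly6a ratio was no longer under 0.05 without irradiated replicates 2 or 3 (0.0625 for each), endogenous replicates 1 or 2 (0.075 for each), or circulating replicate 2 or endogenous replicate 3 (0.05 for each). For Cd48 to Kit this was so without irradiated replicate 2 (0.0625) or 3 (0.05).

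The ratio of Flt3 to Cd34 was 0.553, 0.369 and 0.465 in circulating replicates, 0.333, 0.354 and 0.283 in irradiated replicates, and 0.409, 0.508 and 0.575 in endogenous replicates (exact p = 0.0643, adjusted p = 0.15). The irradiated libraries were the lowest of the 9. Slamf1, the stem cell SLAM marker, was low in all groups. Its mean was 16.3 ± 13.4 in circulating cells, 15.9 ± 3.50 in irradiated cells and 10.3 ± 0.285 in endogenous cells. The ratio of Flt3 to Slamf1 ran from 12.0 to 131 in circulating libraries, from 23.6 to 29.4 in irradiated and from 64.1 to 83.2 in endogenous libraries, and did not pass (exact p = 0.254, adjusted p = 0.296). Circulating replicate 1 was the highest of all and replicate 2 the lowest, and without replicate 1 the ratio passed (adjusted exact p = 0.0417). Cd48 to Slamf1 did not pass (exact p = 0.779, adjusted p = 0.779), nor did Flt3 to Kit (exact p = 0.236, adjusted p = 0.296) or Cd34 to Kit (exact p = 0.218, adjusted p = 0.296). Without circulating replicate 3 the Cd34 to Kit ratio passed (adjusted exact p = 0.025).

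**Figure D3:**
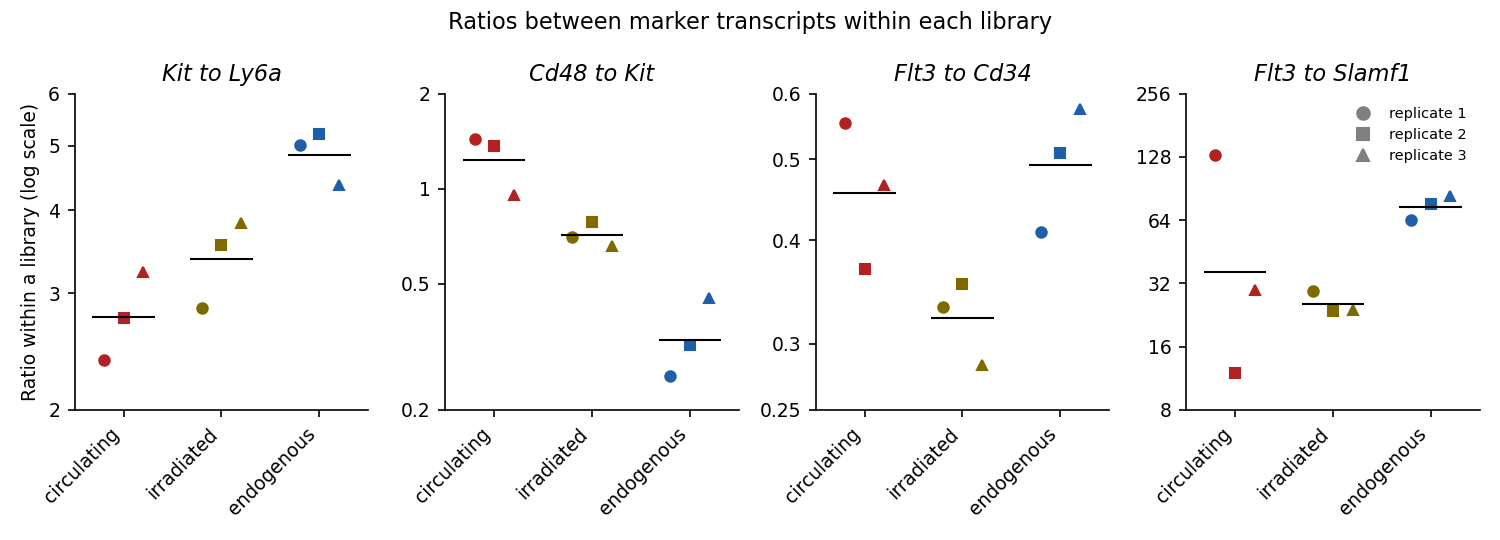
Ratios of deposited values within each library (y axis, log scale, a range of its own in each panel) for Kit to Ly6a, Cd48 to Kit, Flt3 to Cd34 and Flt3 to Slamf1; symbols mark replicates 1 to 3 and bars the mean on the log scale. The Cd48 to Kit ratio falls from circulating (0.957 to 1.43) through irradiated (0.659 to 0.782) to endogenous libraries (0.256 to 0.452) without overlap.

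Levels of different genes were compared only per kilobase of transcript, with the principal transcript of the GENCODE annotation, from 955 bases for Ly6a to 5214 bases for Kit. Cd34 had the highest value per kilobase in 7 of 9 libraries and Cd48 in circulating replicates 2 and 3. In endogenous cells Cd34 stood at 634 ± 16.2 per kilobase, Cd48 at 249 ± 49.8, Flt3 at 211 ± 32.1, Ly6a at 188 ± 13.4 and Kit at 168 ± 26.3. In circulating cells the values per kilobase were 427 ± 133 for Cd34, 396 ± 65.8 for Cd48, 143 ± 9.64 for Ly6a, 135 ± 64.3 for Flt3 and 72.8 ± 8.66 for Kit. Kit was the lowest of the 5 in 8 of 9 libraries, and in irradiated replicate 3 Flt3 was. The order of Cd34 and Cd48 depended on the length used: with all annotated exons joined, Cd48 was highest in 8 of 9 libraries. In circulating cells the ranges of Cd34 and Cd48 overlapped, as did those of Ly6a and Flt3, while Kit lay under all of them. In endogenous cells Cd34 lay above the rest, and the ranges of Cd48, Flt3, Ly6a and Kit overlapped.

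Other surface markers that subdivide LSK cells were read from a list of 23 genes, of which 20 are not members. Of these 20, 1 rose, 3 fell and 16 missed the threshold between circulating and endogenous cells, with a median log2 fold change of -0.28 beside -0.04 for all tested genes. Procr, the endothelial protein C receptor used to purify stem cells, fell from 65.9 ± 13.6 to 23.1 ± 6.08, and Eng, the TGF-beta co-receptor endoglin, fell from 40.5 ± 12.7 to 17.7 ± 4.22 (limma adjusted p = 0.00828 and 0.026). Among those that did not pass were Cd27, a TNF receptor family member (227 ± 83.3 against 306 ± 29.4), and the tetraspanin gene Cd9 (165 ± 79.3 against 92.2 ± 18.3). In circulating against irradiated cells limma called 0 of the 20, with 6 of all 23 at an unadjusted p under 0.05 and 0 with voom weights. The Eng call ended without circulating replicate 3 (limma adjusted p = 0.069) or endogenous replicates 1 or 3 (0.0984 and 0.0621).

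Relatives of the 2 receptor kinases did not pass. Of the class III receptor tyrosine kinases and their ligands, 3 genes beside Kit and Flt3 were tested, and limma called 0 of the 3 in every comparison. Of the 5 genes together, 3, 1 and 2 had an unadjusted p under 0.05 in circulating against endogenous, circulating against irradiated and irradiated against endogenous cells, and voom weights called 1, 0 and 0. Pdgfrb, a platelet-derived growth factor receptor, stood at 29.3 ± 10.5 in circulating cells, 35.8 ± 13.6 in irradiated cells and 50.7 ± 12.4 in endogenous cells. Csf1r, the macrophage colony-stimulating factor receptor, was 47.6 ± 34.2, 26.3 ± 10.8 and 23.6 ± 5.82 in the same order. The ligand genes Kitl and Flt3l were not found among the genes of the deposited table.

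Of 30 genes that carry the signal of c-Kit and FLT3 into the cell, 1 rose and 29 missed the threshold between circulating and endogenous cells, with a median log2 fold change of -0.07. Ptpn6, the phosphatase SHP-1 that dampens c-Kit signalling, rose from 434 ± 39.2 in endogenous to 575 ± 28.4 in circulating cells (log2 fold change 0.41, limma adjusted p = 0.0406). Its adjusted p without 1 library was above 0.05 for each library but circulating replicate 1, from 0.0618 without irradiated replicate 2 to 0.119 without endogenous replicate 2. Inpp5d, the lipid phosphatase SHIP-1, stood at 145 ± 6.11 in circulating cells, 134 ± 23.7 in irradiated cells and 191 ± 32.2 in endogenous cells. Limma called 0 of the 30 in circulating against irradiated cells (8 at an unadjusted p under 0.05, 0 with voom weights) and 0 in irradiated against endogenous cells (2 and 0).

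Of 7 further Ly6 family genes, 1 rose in circulating against endogenous cells. Ly6c2, which encodes the monocyte antigen Ly6C, stood at 920.4 ± 532 in circulating cells, 514 ± 234 in irradiated cells and 120.4 ± 44.7 in endogenous cells (circulating against endogenous log2 fold change 2.78, limma adjusted p = 0.0194), a direction opposite to the Ly6a difference of -0.39. The Ly6c2 call ended without circulating replicate 2 (limma adjusted p = 0.0682) or endogenous replicates 2 or 3 (0.0643 and 0.0613), and voom weights called 0 genes of the family. Ly6e, a broadly expressed relative, was 1363 ± 35.9, 1369 ± 160 and 1234 ± 107 and did not pass. In the SLAM family with its adaptors and Cd2, limma called 0 of 10 genes beside Cd48 in each comparison. Counting Cd48, 4, 3 and 2 of 11 had an unadjusted p under 0.05 in circulating against endogenous, circulating against irradiated and irradiated against endogenous cells, and voom weights called 1, 0 and 0. Ly9, a SLAM receptor encoded in the same gene cluster as Cd48, was 53.4 ± 19.3 in circulating against 90.7 ± 12.98 in endogenous cells (limma adjusted p = 0.0723), while Cd84 was 142 ± 36.4 against 164 ± 32.1.

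Of 3 further genes of the list of CD34-like sialomucins and selectin partners, 2 rose and 1 missed the threshold between circulating and endogenous cells, where Cd34 had a log2 fold change of -0.62. Among them was Selplg, which encodes the P-selectin ligand PSGL-1 (455 ± 39.96 against 330.1 ± 35.7, limma adjusted p = 0.0425). The Selplg adjusted p without 1 library was above 0.05 for each library but circulating replicate 1, from 0.0622 without irradiated replicate 3 to 0.133 without endogenous replicate 2. Of 24 tested genes of GPI anchor synthesis, which makes the anchor of Sca-1 and CD48, 1 rose, 23 did not pass and the median was 0.02. That gene was Pigm, a mannosyltransferase (48.3 ± 5.90 against 26.1 ± 3.57, limma adjusted p = 0.034), whose call was lost when any 1 of 7 of the 9 libraries was left out, with a limma adjusted p of up to 0.0982 without endogenous replicate 3.

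Of 17 transcription factors known to act on Kit, Flt3, Cd34 or Ly6a, 1 rose, 2 fell and 14 missed the threshold between circulating and endogenous cells, with a median of -0.38. Meis1, a homeobox factor of stem cells, fell from 359 ± 15.1 to 214 ± 53.3 (log2 fold change -0.78, limma adjusted p = 0.0227), and irradiated cells stood at 257 ± 13.5. Lmo2, an adaptor of the stem cell transcription complex, fell from 528 ± 78.6 to 348 ± 20.8 (limma adjusted p = 0.0284), with irradiated cells at 589.6 ± 73.7. Gata1, the erythroid and megakaryocyte factor, rose from 11.9 ± 3.34 to 54.4 ± 33.3 (limma adjusted p = 0.0409), with irradiated cells at 41.2 ± 20.4. The Meis1 call ended without any 1 endogenous library (limma adjusted p = 0.0824, 0.0671 and 0.0574), the Lmo2 call without circulating replicates 2 or 3 (0.0529 and 0.0693) or endogenous replicates 1 or 3 (0.109 and 0.0855), and the Gata1 call without any library but circulating replicate 1 (0.0502 to 0.112). Myb, a factor that progenitors need, was 501 ± 70.9 against 443 ± 67.8 and did not pass.

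Of 10 genes of the interferon signalling that induces Ly6a, 1 rose, 1 fell and 8 missed the threshold between circulating and endogenous cells, with a median of -0.12. Ifngr1, the binding chain of the interferon gamma receptor, rose from 204.5 ± 12.6 to 491 ± 192 (log2 fold change 1.19, limma adjusted p = 0.0168). Irf9, the DNA-binding part of the complex that type I interferon activates, fell from 177 ± 9.45 to 111 ± 3.86 (limma adjusted p = 0.0105), and it also fell in irradiated cells, to 115 ± 3.80 (limma adjusted p = 0.0425). Without 1 endogenous library the Ifngr1 adjusted p was 0.0643, 0.0532 and 0.0539, and that of Irf9 in circulating cells 0.0512 without endogenous replicate 1, both in limma. The Irf9 call in irradiated cells ended without any 1 irradiated or endogenous library (limma adjusted p from 0.105 to 0.22).

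Over the 10 lists together, 14 of 129 genes that are not members were called in circulating against endogenous cells, which is 10.9% beside the background of 8.63%. In circulating against irradiated cells limma called 0 of 129, with 27 at an unadjusted p under 0.05 (20.9%, beside 11.4% of all genes) and 0 with voom weights. In irradiated against endogenous cells it called 2, with Irf9 among them, which is 1.55% beside 0.603%.

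Summed over marker lists of other cell types, B lineage markers ran from 107 to 295 in circulating libraries against 71.6 to 102 in endogenous libraries, with Pax5 and Vpreb1 at 0 in at least 1 library. Monocyte and macrophage markers summed to 310.5 to 989 in circulating, 239.5 to 442 in irradiated and 140 to 198 in endogenous libraries. NK cell markers summed to 517 to 898, 535 to 651 and 226 to 281 in the same order. The NK cell sums held 3 of 6 listed genes, which did not move together. Their log2 fold changes ran from -0.45 to 1.48 (median -0.03) in circulating against endogenous cells. In irradiated against endogenous cells they ran from -0.71 to 1.27 (median -0.33). In circulating against endogenous cells limma called 5.33% of all tested genes higher and 3.3% lower. Of the tested markers it called 2 of 6 B lineage, 2 of 7 monocyte and 1 of 3 NK cell genes higher. It also called 2 of 4 dendritic cell genes (Flt3 left out), 1 of 7 erythroid and 1 of 6 mast cell genes higher. Limma called 2 of 9 neutrophil and 1 of 3 endothelial markers lower. It called 0 of 6 T cell, 0 of 5 megakaryocyte and 0 of 2 stromal markers there.

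Mast cells carry c-Kit themselves, and dendritic cell precursors carry FLT3. Mast cell and basophil markers summed to 163, 649 and 802 in circulating replicates 1 to 3, to 223 to 350 in irradiated and to 173 to 205 in endogenous libraries, with Fcer1a at 0 in at least 1 library. Dendritic cell markers without Flt3 summed to 34.5, 209.7 and 53.9 in circulating replicates, to 16.7 to 23.0 in irradiated and to 13.9 to 30.6 in endogenous libraries. Erythroid markers summed to 156 to 788, 121 to 433 and 117 to 161 in circulating, irradiated and endogenous libraries, with Hbb-bs and Alas2 at 0 in at least 1 library. T cell markers summed to 64.2 to 215, 53.7 to 88.8 and 117 to 126, with Cd3e at 0 in at least 1 library. Neutrophil markers summed to 1156 to 1824, 822 to 2008 and 1106 to 2304. Megakaryocyte markers summed to 46.3 to 219, 125 to 218 and 86.3 to 115. Endothelial markers summed to 115 to 134, 156 to 165 and 204 to 214. Stromal markers summed to 25.6 to 42.3, 23.2 to 50.04 and 43.1 to 64.2, with Col1a2 at 0 in at least 1 library. The endothelial and stromal sums each held only 3 of 6 listed genes. Genes of 1 list did not always move together. In circulating against endogenous cells, log2 fold changes ran from -2.11 to 2.13 for erythroid and -2.23 to 1.56 for T cell markers. They ran from -0.51 to 2.75 for mast cell and -3.73 to 0.59 for neutrophil markers. For megakaryocyte markers the range was -0.76 to 0.32, and for stromal markers -0.80 to 1.47. All tested B lineage and monocyte markers were higher there, and all tested endothelial markers lower. Several of these sums differed between circulating and endogenous libraries, as Kit and Cd48 did, and their part in the results was not tested.

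For each marker the genes with the most similar log2 values over the 9 libraries were found among 10321 candidates, by Pearson's r as a description. Points of a group share their condition, so these values carry no test. Kit was most like Rtf1, Kdm5d and Wdr6 (r = 0.97, 0.96 and 0.96), and Kdm5d was 20.9 ± 0.848, 32.5 ± 6.53 and 49.6 ± 9.36 in circulating, irradiated and endogenous cells. Cd34 was most like Paqr5, Ctla2a and Scai (r = 0.98 for each), and Ctla2a was 187 ± 56.9, 247 ± 34.8 and 324 ± 10.03 in the same order. Cd48 was most like Rheb, Mrps12 and Cox7c (r = 0.97, 0.96 and 0.96), and Rheb was 147 ± 15.3, 142 ± 11.6 and 115 ± 15.4. Ly6a was most like Crkl, Rab2b and Pdpr (r = 0.96, 0.94 and 0.93), and Flt3 most like Mn1, Cfl2 and Ccl4 (r = 0.96, 0.95 and 0.95).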

How the data were processed

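RNA of 9 marrow LSK samples was amplified with SMART-Seq v4 and made into Nextera XT libraries, per the labels' protocols. The submitters' processing notes name CASAVA, RSEM 1.3.1, limma and the build mm10, and the sources used here give no other step. The deposited file holds normalised signal per gene. In each column the values step as an estimated count with 2 decimals plus 0.5, times 1 constant, so they are not counts, and a zero count reads 0.0182 to 0.0376. The kit does not mark strand, so reads of overlapping genes cannot be told apart.

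Gene names came from GENCODE M21 (14405 of 14461 matched). Genes with a value of at least 1 in at least 3 libraries (13771) were tested with limma 3.58.1 in R 4.3.3 on log2(value + 1) with a robust trend, all 9 libraries in 1 fit, and Benjamini-Hochberg adjustment. The test was checked on simulated data, with changes set in genes of many levels. Each simulated gene had the same spread in all 3 groups, while the real groups differed in spread. The check therefore cannot tell the comparisons apart in what they can detect. With changes set in its first group, the test recovered 36% of 2-fold changes in circulating against endogenous cells. It recovered 37.4% in circulating against irradiated and 35.6% in irradiated against endogenous cells. A gene that did not pass is therefore not shown to be unchanged. Ratios between markers were tested by a two-sided exact permutation test over 1680 relabellings, adjusted over 7 ratios. Other genes named are, of each list, the called ones (at most 4 per comparison) and up to 4 uncalled ones with the highest mean, and for likeness the 3 highest r. Some genes that this rule names are not reported here. The members and lists were chosen with earlier results of these data known. Alternatives were another pseudocount, filter, scaling, weighting, grouping, a replicate block and each library left out.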

Additional observations from a re-analysis of the deposited data

How the results depend on the processing

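The Kit difference of circulating from endogenous cells passed in all 20 alternatives, and the signs that turned were of results that did not pass. With only the compared groups fitted, log2 fold changes that newly passed were -0.57 for Kit, -0.33 for Cd34 and -0.94 for Flt3 in irradiated against endogenous cells, and Cd48 at 0.68 no longer passed in circulating against endogenous cells. Genes called over the whole table were then 239 in circulating against endogenous cells and 757 in irradiated against endogenous cells, against 1189 and 83. With sample weights, Kit (-0.56), Flt3 (-0.94) and Cd48 (0.54) passed in irradiated against endogenous cells, Cd48 in circulating against endogenous cells (0.68) did not, and 494 and 897 genes were called. With scaling by library size alone, which moved the median gene to -0.22 in circulating against endogenous cells and turned the split of calls to 340 higher and 821 lower from 734 and 455, Ly6a (-0.60) and Cd34 (-0.82) passed there, Cd48 (0.48) did not, Kit passed in irradiated against endogenous cells (-0.71), and 11 genes were called in circulating against irradiated cells. Voom weights called 8 there. The cause of these changes was not tested.

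Circulating and irradiated libraries of 1 number share a title code that the labels do not explain. Their deviations from the group means correlated at 0.050, 0.031 and 0.18, not over 0.1 in each pair. Circulating replicate 1 correlated more with irradiated replicate 2 (0.11) than with its own number. The other circulating and irradiated pairs of different numbers were all negative, down to -0.17. Against endogenous libraries, which share no code, same-numbered correlations ran from -0.02 to 0.079. The numbers were therefore not taken to pair the samples, though a shared source behind the codes cannot be told from the labels. With the replicate block, Cd34 in circulating against endogenous cells passed (-0.62, limma adjusted p = 0.0406), and 1147, 9 and 105 genes were called in circulating against endogenous, circulating against irradiated and irradiated against endogenous cells. No member passed in circulating against irradiated cells with the block (lowest limma adjusted p 0.203, for Kit). The block with only the compared groups fitted was chosen after seeing the data. It called 65, 2 and 496 genes, Kit (-0.57) and Flt3 (-0.94) passed in irradiated against endogenous cells, and the Cd48 call between circulating and endogenous cells (0.68) was lost.

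Without 1 library at a time, 257 to 2224 genes were called in circulating against endogenous cells, 3 to 137 in circulating against irradiated and 6 to 263 in irradiated against endogenous cells, the highest of each without circulating replicate 1. Log2 fold changes against endogenous cells ran from -0.84 to -0.39 for Cd34, -1.09 to -0.51 for Flt3 and 0.50 to 0.80 for Cd48 in circulating cells, and from -0.16 to 0.013 for Ly6a, -0.69 to -0.46 for Kit and -1.07 to -0.79 for Flt3 in irradiated cells. Flt3 in circulating against irradiated cells ran from -0.15 to 0.43. Adjusted exact p-values ran from 0.025 to 0.075 for Kit to Ly6a, 0.025 to 0.0625 for Cd48 to Kit, 0.025 to 0.504 for Cd34 to Kit and 0.0417 to 0.537 for Flt3 to Slamf1.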
